A study of Mus musculus with 18 samples.

Results

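The genes described here encode the nuclear subunits of the last steps of mitochondrial respiration, complex III, complex IV and ATP synthase, and were measured in 18 single mouse 2-cell embryos. Members were all genes whose array symbol begins with Uqcr, Cox4 to Cox8 or Atp5, together with Cyc1. Each gene was read through 1 probe set, the one with the highest mean over the 18 embryos among those naming that gene alone. This gave 43 of the 19935 genes on the array with a probe set of their own, 9 of complex III, 17 of complex IV and 17 of ATP synthase. Cox7a2l is counted with complex IV by its symbol, although it is not a core subunit. Cox7c was left out because its probe sets also name another gene.

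Complex III passes electrons from ubiquinol to cytochrome c, complex IV passes them on to oxygen, and both pump protons out of the mitochondrial matrix. ATP synthase lets the protons back in and uses their flow to make ATP. The mouse embryo inherits its mitochondria from the oocyte and relies on respiration before implantation, and its own genome becomes widely active at the 2-cell stage. The subunits studied here are all made from nuclear genes.

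Each embryo was hybridized to 1 array. All animals were of the 129SVE (=129S6/SvEvTac, Taconic) background, and all mothers were wild-type and naturally mated. The 9 WT embryos came from 3 wild-type fathers (WT1, WT2 and WT3, with 3 embryos each). The 9 Parg(110)-/+ embryos came from 3 Parg(110)-/- fathers (PargA, PargB and PargC, with 3 embryos each) and carried 1 copy of Parg with exons 2 and 3 deleted. Parg encodes the glycohydrolase that degrades poly(ADP-ribose), and its loss in the father disturbs the replacement of histones by protamines in sperm. The question was whether transcripts of the embryo differ with the genotype of the father. Because genotype belongs to the father, the state of his sperm and the embryo's own heterozygous deletion cannot be told apart. An embryo is named by its father and number, as in PargB-1.

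Levels are log2 values after RMA (robust multichip average), so a difference of 1 is a doubling, and levels of different genes cannot be set against each other. A probe set was called bright where its mean was at or above 6.47, the median of all probe set means, and dim below it. The array medians lay between 6.34 and 6.53. The array of PargB-1 had a mean correlation of 0.937 with the other arrays, where the other 17 arrays had 0.946 to 0.953. The Parg probe set, which does not separate the deleted exons, measured from 9.55 to 10.89 (median 10.61) in WT and from 9.37 to 10.84 (median 10.26) in Parg(110)-/+ embryos. That difference was -0.32 ± 0.20 (SE, limma adjusted p = 0.571).

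Of the 43 members, 39 were bright. These included all 9 of complex III and all 17 of ATP synthase. The 4 dim members were Cox7a1, Cox7b2, Cox8b and Cox8c, all isoforms of complex IV subunits known from muscle or testis.

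RefSeq promoter windows (GRCm38.p6, 250 bases before to 50 bases after a start site) were found for 32 of the 43 members. They were searched on both strands for the exact letters of 4 motifs, which did not overlap one another in these windows. The motif of NRF1, a known regulator of respiratory genes, was searched as GCGCATGCG and occurred in 6 of 32 members (18.8%; Atp5g2, Atp5k, Atp5l, Cox6a1, Uqcr11 and Uqcrc1), against 2.86% of the 15561 array genes with a window and 1.75% of all 32851 windows. In 4 of these genes its matches on both strands overlapped, because the letters nearly mirror themselves. The ETS motif bound by GABPA, searched as CCGGAAGT, occurred in 4 of 32 members (12.5%; Atp5h, Cox8a, Uqcr11 and Uqcrh), against 6.03% of the array genes and 3.89% of all windows. The YY1 motif, searched as AAGATGGCG, occurred in 2 of 32 members (6.25%; Atp5j and Atp5j2), against 2.29% and 1.40%. The TATA box, searched as TATAAA, occurred in 4 of 32 members (12.5%), against 13.6% of both.

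Sequence is shown for Uqcrh and Atp5j2, which had the largest differences between the genotypes among the members, and for Cox6a1 as an example with the NRF1 motif. Capitals mark motif matches. For Uqcrh the 250 bases before the start site lie at chr4:116075071-116075320 on the minus strand, and the capitals are the ETS motif as it reads on the opposite strand. For Cox6a1 the 250 bases before the start site lie at chr5:115348959-115349208 on the minus strand, and the capitals span the overlapping NRF1 matches. For Atp5j2 the 30 bases around its YY1 match, which lies after the start site, are at chr5:145191499-145191528 on the minus strand.
Uqcrh: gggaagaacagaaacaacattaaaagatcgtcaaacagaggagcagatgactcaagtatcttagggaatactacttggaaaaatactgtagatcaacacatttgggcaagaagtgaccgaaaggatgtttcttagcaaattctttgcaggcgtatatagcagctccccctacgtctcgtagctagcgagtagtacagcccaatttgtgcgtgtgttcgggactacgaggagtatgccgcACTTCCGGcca
Cox6a1: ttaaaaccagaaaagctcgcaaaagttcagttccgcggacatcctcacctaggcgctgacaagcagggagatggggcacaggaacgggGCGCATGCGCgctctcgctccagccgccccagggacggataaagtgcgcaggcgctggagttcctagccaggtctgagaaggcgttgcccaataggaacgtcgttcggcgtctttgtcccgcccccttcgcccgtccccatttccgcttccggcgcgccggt
Atp5j2: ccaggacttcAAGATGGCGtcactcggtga

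Between the genotypes the members moved in both directions and none passed the test. Limma called 0 of 43 members at an adjusted p under 0.1, beside 0% of all 28815 probe sets (0 called). At an unadjusted p under 0.05 there were 3 members (6.98%; Cox6c, Uqcrh and Atp5g3), all higher in Parg(110)-/+ embryos, beside 10.5% of all probe sets. Of all probe sets at that p, 85.6% were higher in Parg(110)-/+ embryos as deposited, but 45.9% with the array medians set equal and 67.5% after a second quantile normalization. With equal array medians there were 3 members at that p (6.98%; Cox6c, Uqcrc2 and Uqcrh), beside 6.22% of all probe sets. After the second quantile normalization there were 4 members (9.30%; Atp5g3, Atp5j2, Cox6c and Uqcrh), beside 6.32%. The share of members thus lay below the background of the array as deposited and above it under both other scalings. With only 3 or 4 members in each count, no difference from the background is read from this.

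By direction alone, 24 of 43 members were higher and 19 were lower in Parg(110)-/+ embryos, with a median difference of 0.02 on the log2 scale. The median over all probe sets was 0.05, with 67.1% higher, and over all bright genes 0.04, with 58.3% higher. The median of complex III was -0.04, with 4 of 9 members higher, and stayed below 0 under both other scalings. The median of complex IV was 0.02, with 9 of 17 higher, and turned to -0.04 with equal array medians, as the median of all members turned to -0.03. The median of ATP synthase was 0.06, with 11 of 17 higher, and came to 0.0002 with equal array medians.

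**Figure D1:**
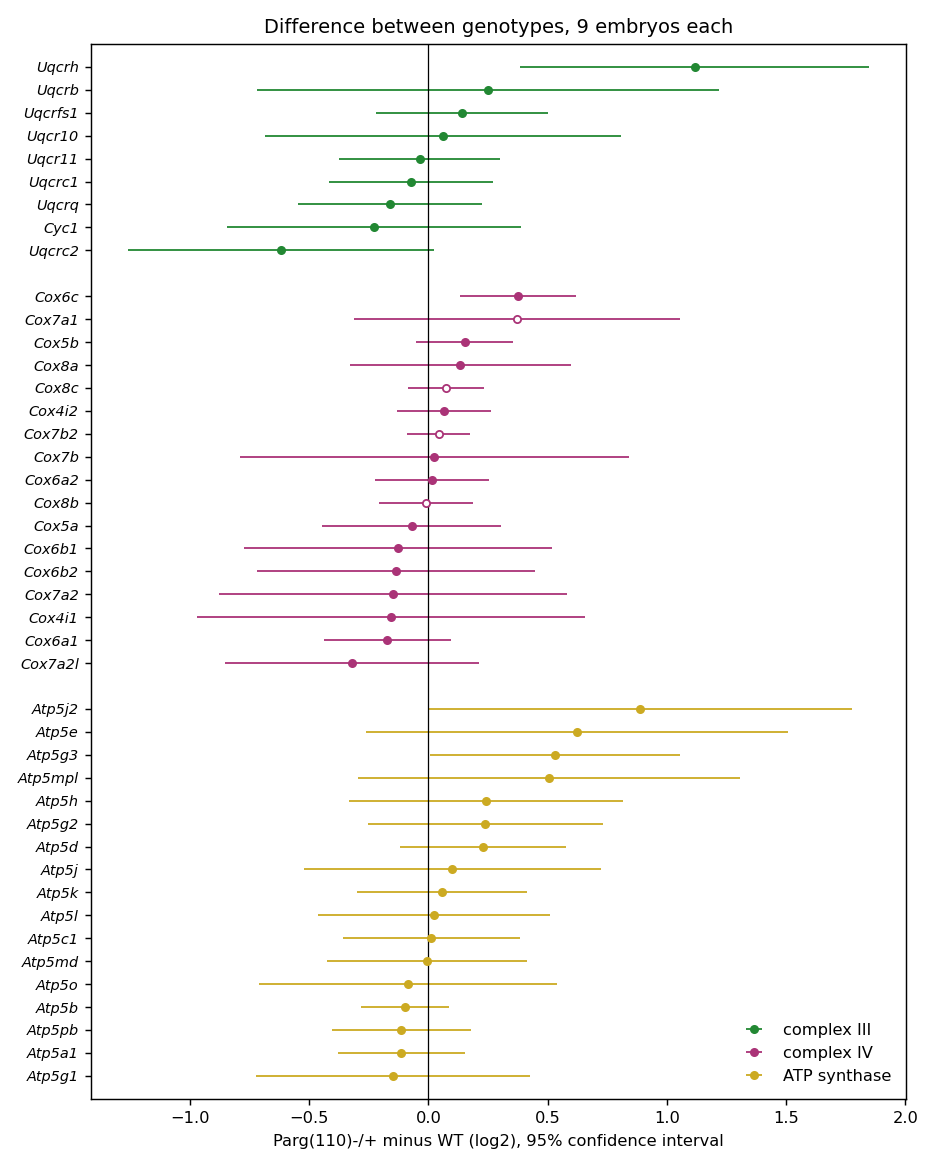
Difference between the genotypes for each of the 43 members (Parg(110)-/+ minus WT, log2), by complex, with limma's 95% confidence interval, 9 embryos per genotype; open circles are dim members. The intervals of Uqcrh, Cox6c and Atp5g3 lie above 0 before adjustment, and the differences run from -0.62 (Uqcrc2) to 1.12 (Uqcrh).

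In complex III the difference was largest for Uqcrh, the hinge protein that helps cytochrome c1 meet cytochrome c. Its WT levels were 8.75, 9.33 and 8.62 (WT1), 8.16, 9.74 and 9.58 (WT2) and 11.01, 8.48 and 10.44 (WT3). Its Parg(110)-/+ levels were 9.83, 9.85 and 10.24 (PargA), 10.82, 10.47 and 10.13 (PargB) and 10.75, 11.54 and 10.52 (PargC). All 9 Parg(110)-/+ embryos lay above the WT mean, and the groups overlapped through WT3-1 and WT3-3. WT embryos averaged 9.34 ± 0.95 (SD, n = 9), and Parg(110)-/+ embryos averaged 10.46 ± 0.54 (SD, n = 9). The difference was 1.12 ± 0.35 (SE, 95% interval 0.39 to 1.85), 2.17-fold, with a limma adjusted p of 0.362. The promoter window of Uqcrh is the one shown above with the ETS motif.

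Uqcrc2, a core protein of the matrix arm of complex III, differed in the other direction. Its WT levels were 9.14, 8.48 and 7.78 (WT1), 8.53, 8.88 and 8.91 (WT2) and 8.82, 7.76 and 9.50 (WT3). Its Parg(110)-/+ levels were 9.13, 7.74 and 8.63 (PargA), 8.13, 8.42 and 8.36 (PargB) and 6.98, 6.78 and 8.09 (PargC). In Parg(110)-/+ embryos 8 of 9 lay below the WT mean, and the lowest values of all embryos were those of PargC-1 and PargC-2. The difference was -0.62 ± 0.30 (SE, limma adjusted p = 0.488), and without the embryos of PargC it was -0.25.

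The other members of complex III differed less. Uqcrq, a small subunit, differed by -0.16 ± 0.18 (SE, limma adjusted p = 0.753), by -0.05 without PargB-2 and by 0.07 without all embryos of PargB. Uqcrb, another small subunit, differed by 0.25 ± 0.46 (limma adjusted p = 0.855). Cyc1, which is cytochrome c1, differed by -0.23 ± 0.29, and Uqcrfs1, the Rieske iron-sulfur protein, by 0.14 ± 0.17. The core protein gene Uqcrc1 and the small subunits Uqcr10 and Uqcr11 differed by -0.07, 0.06 and -0.04. A second probe set of Uqcr11, which correlated with the first at only r = 0.356, gave -0.15 ± 0.17 (SE).

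In complex IV the smallest p belonged to Cox6c, a small subunit of the membrane part. Its WT levels were 11.24, 10.60 and 11.35 (WT1), 10.72, 10.74 and 11.12 (WT2) and 10.74, 10.67 and 10.92 (WT3). Its Parg(110)-/+ levels were 11.30, 11.30 and 11.23 (PargA), 11.65, 11.43 and 11.10 (PargB) and 11.00, 11.48 and 11.00 (PargC). All 9 Parg(110)-/+ embryos lay above the WT mean, and WT1-1, WT1-3 and WT2-3 lay among them. WT embryos averaged 10.90 ± 0.27 (SD, n = 9), and Parg(110)-/+ embryos averaged 11.28 ± 0.22 (SD, n = 9). The difference was 0.38 ± 0.11 (SE, 95% interval 0.13 to 0.62), 1.30-fold, with a limma adjusted p of 0.362. A second probe set of Cox6c, which correlated with the first at r = 0.826 over the 18 embryos, differed by 0.73 ± 0.33 (SE, limma adjusted p = 0.465), with 8 of 9 Parg(110)-/+ embryos above the WT mean.

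Cox5b, a subunit of the matrix side, measured from 11.48 to 12.00 (median 11.75) in WT and from 11.44 to 12.24 (median 11.96) in Parg(110)-/+ embryos. The groups overlapped, although 4 of 9 Parg(110)-/+ embryos lay above the highest WT embryo, with a difference of 0.15 ± 0.10 (SE, limma adjusted p = 0.571) that was 0.09 without the embryos of WT2. Cox6a1, whose promoter window holds the NRF1 motif, differed by -0.17 ± 0.13 (limma adjusted p = 0.619), by -0.10 without PargA-3 and by -0.08 without all embryos of PargA. Cox7a2l, which joins complexes III and IV in supercomplexes, differed by -0.32 ± 0.25 (limma adjusted p = 0.640).

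Several complex IV subunits have tissue isoforms, and 7 of these were measured, 5 higher and 2 lower with a median difference of 0.04. The broadly expressed subunits numbered 9, 4 higher and 5 lower with a median of -0.07. None of either kind passed the test. Cox4i1, the broad form of the largest nuclear subunit, differed by -0.16 ± 0.39 (SE), and its isoform Cox4i2 by 0.07 ± 0.09. The muscle isoform Cox6a2 differed by 0.02 ± 0.11 beside -0.17 for Cox6a1. The testis isoform Cox6b2 was bright, from 9.79 to 11.97 over all embryos, and differed by -0.14 ± 0.28 beside -0.13 ± 0.31 for the broad Cox6b1. The muscle isoform Cox7a1 was dim and differed by 0.37 ± 0.32, beside -0.15 ± 0.35 for the broad Cox7a2. The testis isoform Cox7b2 differed by 0.04 ± 0.06 beside 0.03 ± 0.39 for Cox7b, whose second probe set gave -0.35 ± 0.30. The dim Cox8b and Cox8c differed by -0.01 ± 0.09 and 0.08 ± 0.08 beside 0.13 ± 0.22 for the broad Cox8a.

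In ATP synthase the largest difference was that of Atp5j2, which encodes the f subunit of the membrane part. Its WT levels were 10.04, 8.71 and 10.66 (WT1), 10.60, 8.54 and 11.32 (WT2) and 10.54, 11.50 and 11.59 (WT3). Its Parg(110)-/+ levels were 11.54, 9.84 and 11.21 (PargA), 10.42, 11.89 and 11.20 (PargB) and 11.76, 11.57 and 12.02 (PargC). In Parg(110)-/+ embryos 8 of 9 lay above the WT mean, but the ranges overlapped widely, and WT1-2 and WT2-2 were far below the other embryos. The difference was 0.89 ± 0.42 (SE, 95% interval -0.004 to 1.78), 1.85-fold, with a limma adjusted p of 0.479. The YY1 match shown above lies in the window of this gene.

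Atp5g3, 1 of 3 genes (with Atp5g1 and Atp5g2) that encode the same mature c subunit of the rotating ring, had WT levels of 9.56, 9.39 and 9.41 (WT1), 9.04, 9.48 and 8.77 (WT2) and 9.85, 9.58 and 9.30 (WT3). Its Parg(110)-/+ levels were 9.76, 11.36 and 10.86 (PargA), 9.71, 9.72 and 9.39 (PargB) and 9.66, 9.37 and 9.31 (PargC). The 2 values above all others were those of PargA-2 and PargA-3. The difference was 0.53 ± 0.25 (SE, limma adjusted p = 0.472), and it was 0.35 without PargA-2 and 0.15 without all embryos of PargA. Atp5g1 and Atp5g2 differed by -0.15 ± 0.27 and 0.24 ± 0.23.

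**Figure D2:**
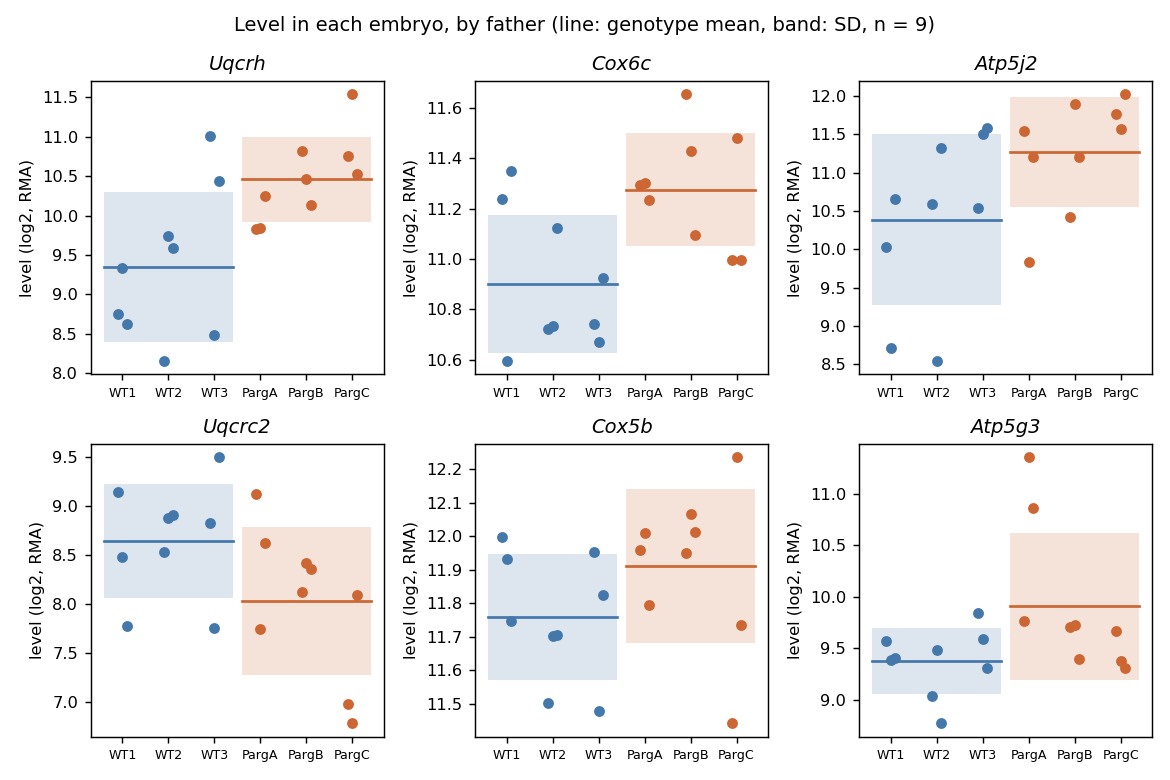
Level of 6 members (log2, RMA) in each of the 18 embryos, by father, with the mean (line) and SD (band) of the 9 embryos of each genotype; each panel has its own axis. All Parg(110)-/+ embryos lie above the WT mean for Uqcrh and Cox6c, and the high mean of Atp5g3 comes with 2 embryos of PargA.

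Of the F1 head of ATP synthase, which carries the catalytic sites, Atp5e (the epsilon subunit) differed by 0.62 ± 0.42 (SE, limma adjusted p = 0.591), by 0.41 without PargC-1, by 0.30 without the embryos of PargB and by 0.99 without those of WT3. It measured from 7.95 to 10.36 (median 8.83) in WT and from 8.18 to 11.31 (median 9.72) in Parg(110)-/+ embryos, so the ranges overlapped for most embryos. The alpha, beta, gamma and delta subunits (Atp5a1, Atp5b, Atp5c1 and Atp5d) differed by -0.11 ± 0.13, -0.10 ± 0.09, 0.01 ± 0.18 and 0.23 ± 0.17. Of the stalk and membrane part, with 12 members, 8 were higher and 4 were lower, with a median of 0.08. Atp5mpl, a small membrane subunit, differed by 0.50 ± 0.38, and the 7 members of this list not yet given (Atp5h, Atp5j, Atp5k, Atp5l, Atp5md, Atp5o and Atp5pb) lay between -0.11 (Atp5pb, the b subunit) and 0.24 (Atp5h, the d subunit).

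Set against the 9 WT embryos, the offspring of single fathers gave 0 called members for PargA (0% of all probe sets called), 0 for PargB (0.00694%) and 0 for PargC (0.0104%). These comparisons share the WT embryos, so their values are given side by side. Uqcrh differed by 0.63 ± 0.45 (SE) for PargA, 1.13 ± 0.45 for PargB and 1.59 ± 0.45 for PargC, with limma adjusted p from 0.369 to 0.996. Cox6c differed by 0.38 ± 0.17, 0.49 ± 0.17 and 0.26 ± 0.17, with adjusted p from 0.325 to 0.991. Atp5j2 differed by 0.47 ± 0.56, 0.79 ± 0.56 and 1.40 ± 0.56. For these 3 genes every father's offspring had a mean above that of WT.

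For other members the offspring of 1 father stood farther from WT than the rest. Atp5g3 differed by 1.28 ± 0.25 (SE) for PargA (limma adjusted p = 0.586), 0.23 for PargB and 0.07 for PargC. Uqcrc2 differed by -1.36 ± 0.39 for PargC (limma adjusted p = 0.521), -0.35 for PargB and -0.15 for PargA. Uqcrq differed by -0.62 ± 0.21 for PargB (limma adjusted p = 0.325), -0.15 for PargC and, in the other direction, 0.29 for PargA. Among the 3 Parg(110)-/- fathers limma's F test called 0 of 43 members (0.0104% of all probe sets), with the smallest p for Atp5g3 (adjusted p = 0.791). Among the 3 WT fathers it also called 0 of 43 (0.00347%). Here the smallest p was that of Atp5d, whose father means spanned 0.66.

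Single Parg(110)-/+ embryos set against the 9 WT embryos gave 4 called members in all. A lone embryo was taken to vary as WT embryos do. Atp5g3 rose in PargA-2, by 1.98 ± 0.31 (SE, limma adjusted p = 0.0289), where 0.635% of all probe sets were called. Cox4i1 fell in PargB-1, to 7.76 against a WT range of 9.15 to 10.76, a difference of -2.55 ± 0.50 (limma adjusted p = 0.0398), where 2.17% of all probe sets were called. In PargC-3 Cox7a2l fell to 8.65 against a WT range of 9.81 to 10.66, a difference of -1.68 ± 0.24 (limma adjusted p = 0.0142). In the same embryo Cox7a1 rose to 8.85 against a WT median of 6.09, a difference of 2.63 ± 0.49 (limma adjusted p = 0.0537), and 0.843% of all probe sets were called there. The Cox7a2l call was lost, at an adjusted p of 0.140, with the spread taken from all 18 embryos.

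No member was called in PargA-1 (0.628% of all probe sets), PargA-3 (0.604%), PargB-2 (0.691%), PargB-3 (0.826%), PargC-1 (0.76%) or PargC-2 (0.625%). The 4 calls among 9 embryos were read against WT embryos, each set against the other 8. In these, Cox7a1 rose in WT1-2 by 1.47 ± 0.12 (SE, limma adjusted p = 0.00106), where 0.479% of all probe sets were called. Cox6b1 fell in WT2-1, to 9.33 against 10.90 to 11.96 in the other WT embryos, a difference of -2.09 ± 0.35 (limma adjusted p = 0.0382), where 0.93% were called. No member was called in WT1-1 (0.732%), WT1-3 (0.708%), WT2-2 (0.68%), WT2-3 (0.6%), WT3-1 (1.15%), WT3-2 (0.732%) or WT3-3 (0.569%). Calls of single members thus occurred in embryos of both genotypes, and Cox7a1 was called in 1 embryo of each.

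Counted over all 43 members, PargB-1 had 29 members (67.4%) below the WT mean with a median difference of -0.34, while 46.7% of all bright genes lay below it there. In the other direction, PargA-1 and PargB-3 each had 11 members (25.6%) below the WT mean, beside 50.9% and 41.3% of all bright genes. Among WT embryos, WT2-2 had 32 members (74.4%) below the mean of the other 8, beside 47.6% of all bright genes. WT2-1 had 31 (72.1%) beside 59.5%, and WT3-1 had 7 (16.3%) beside 59.0%. The median differences ran from -0.34 to 0.20 in Parg(110)-/+ embryos and from -0.22 to 0.25 in WT embryos. The part of the lower array correlation of PargB-1 in its values was not tested.

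**Figure D3:**
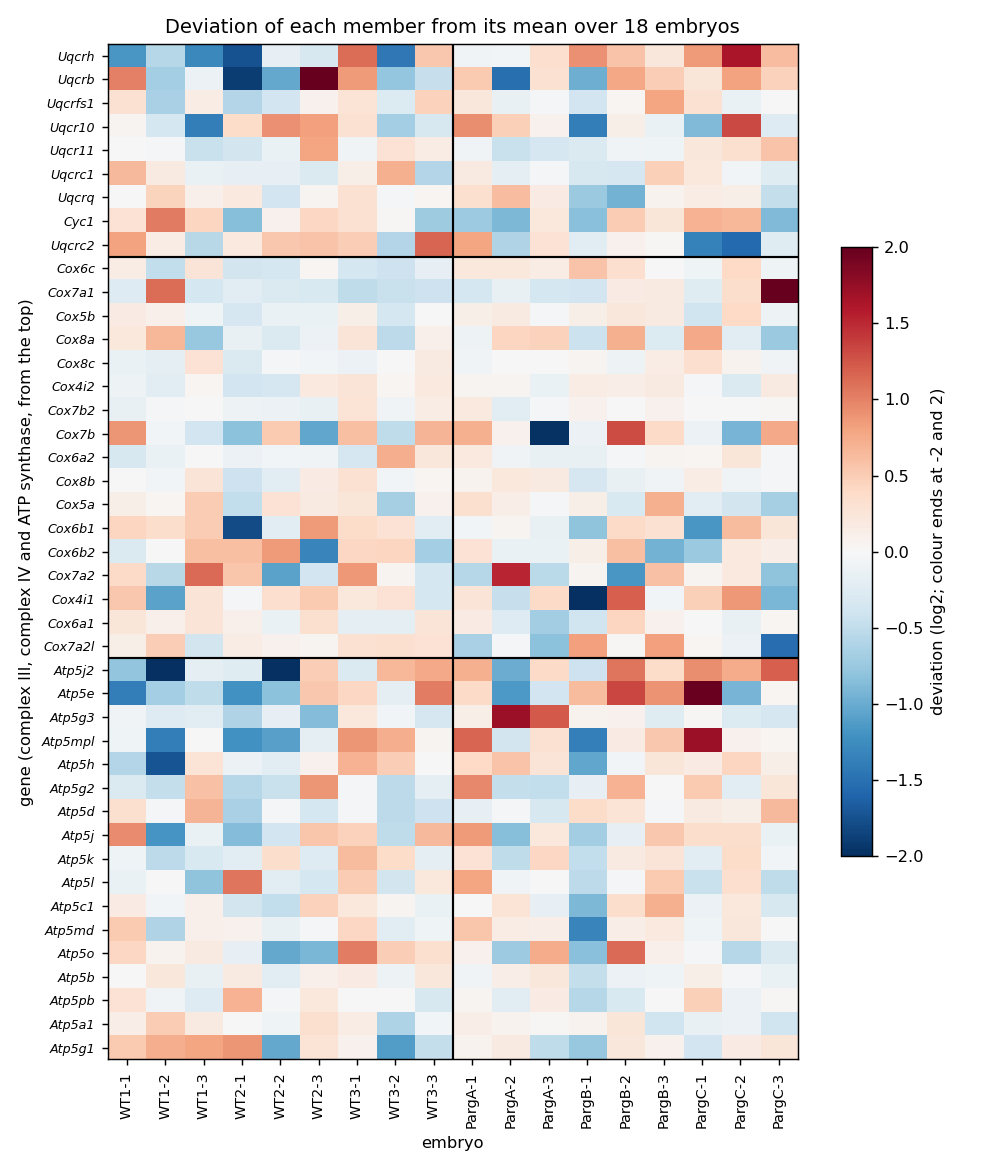
Deviation of each of the 43 members (rows, by complex) from its own mean over 18 embryos (columns, WT left of the line), in log2 with colours ending at -2 and 2. Single cells stand out more than whole columns, such as Cox4i1 in PargB-1 and Cox7a1 in PargC-3.

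The spread between embryos was unlike from member to member. The SD over the 18 embryos had a median of 0.64 for the bright members of complex III, 0.48 for complex IV and 0.52 for ATP synthase, beside 0.33 for all bright genes. Of the 39 bright members, 31 had an SD above that median of all bright genes, 9 of 9 in complex III, 8 of 13 in complex IV and 14 of 17 in ATP synthase. The bright genes were not matched to the members by level, and values near background are compressed. The part of level in these spreads was not tested. The largest SD of ATP synthase was that of Atp5j2 (1.02), followed by Atp5e (0.96). In complex III it was that of Uqcrb (1.00), which ran from 6.17 in WT2-1 to 10.06 in WT2-3, embryos of the same father, followed by Uqcrh (0.94). In complex IV it was that of Cox4i1 (0.84), followed by Cox7b (0.83). The other probe sets of Uqcrb, with r = 0.929 and 0.674 to the chosen one, had SDs of 0.93 and 0.71. The second probe set of Cox7b (r = 0.681) had an SD of 0.67.

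Other subunits of the same complexes had a smaller SD. Atp5b, the catalytic beta subunit, had an SD of 0.19, lying between 11.04 and 11.74 in all 18 embryos. Cox5b of complex IV had an SD of 0.22, lying between 11.44 and 12.24. Cox4i2 had an SD of 0.20, lying between 6.64 and 7.28, close to the limit between bright and dim. Values near background are compressed, and the part of its level in the SD of Cox4i2 was not tested. The smallest SD of complex III, that of Uqcr11 (0.34), was higher than that of 51.2% of all bright genes. The second probe set of Uqcr11, which followed the first only weakly, had an SD of 0.37. Within bright genes, the SD of Atp5j2 was higher than that of 95.7% of them and the SD of Atp5b higher than that of 27.7%. Transcripts for subunits of the same complex thus had unlike spread on these arrays.

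To follow a complex as a whole, each member's deviation from its mean over 18 embryos was averaged per embryo. The 4 dim members of complex IV were included. The mean deviation had an SD over embryos of 0.30 for complex III, 0.13 for complex IV and 0.27 for ATP synthase. These means were taken over 9, 17 and 17 members, with dim members only in complex IV, so their SDs are not set against each other. Complex III was lowest in WT2-1 (-0.54) and highest in WT2-3 (0.46). Complex IV, over all its 17 members, bright and dim, was lowest in WT2-1 (-0.24) and highest in PargB-2 (0.22). ATP synthase was lowest in PargB-1 (-0.49), close to WT2-2 (-0.49), and highest in PargA-1 (0.38). The mean of Parg(110)-/+ embryos was 0.03 ± 0.27 (SD, n = 9) for complex III, 0.003 ± 0.15 for complex IV and 0.08 ± 0.27 for ATP synthase, and that of WT was -0.03 ± 0.34, -0.003 ± 0.13 and -0.08 ± 0.26. In all 3 complexes the genotypes differed by less than the SD within either of them.

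**Figure D4:**
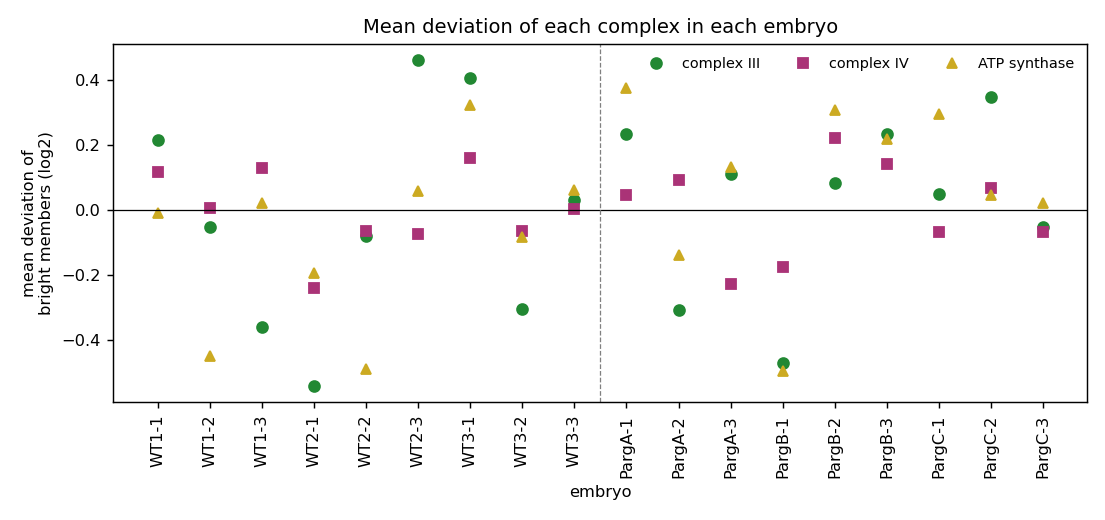
Mean deviation of all members of complex III, complex IV and ATP synthase (log2) in each of the 18 embryos. WT embryos lie left of the dashed line. The dim members of complex IV are included, although the axis label names bright members. Values run from -0.54 to 0.46, and the WT and Parg(110)-/+ embryos overlap in all 3 complexes.

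Between complexes, the mean deviations of complex III and ATP synthase had r = 0.600 and rho = 0.723 over the 18 embryos, and r = 0.474 without WT2-1 and PargB-1. Complexes III and IV had r = 0.410 and rho = 0.337, and r = 0.092 without the same 2 embryos. Complex IV and ATP synthase had r = 0.443 and rho = 0.391, and r = 0.549 without WT2-1 and PargA-3. These are descriptions over values from the same arrays, and no test was made of them.

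Gene by gene the members followed each other weakly. The mean correlation between 2 bright members over the 18 embryos was 0.109 within complex III, 0.047 within complex IV and 0.154 within ATP synthase, beside 0.016 for all bright genes. Of all 741 pairs of bright members, the highest r was 0.830 between Atp5j, coupling factor 6 of the ATP synthase stalk, and Uqcrfs1, followed by 0.767 between Atp5j and Uqcrb and 0.762 between Atp5md and Cox4i1, which fell to 0.450 without PargB-1. The lowest was -0.627 between Atp5g3 and Cox6a1. The 3 highest pairs each joined members of different complexes, as most of the 741 pairs do.

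Uqcrh and Cox6c, the members with the smallest p between the genotypes, were also compared over all 18 embryos. Pearson's r was 0.367 (permutation p = 0.135) and Spearman's rho 0.383 (permutation p = 0.120), two-sided with an adjusted p of 0.135 for each over these 2 coefficients. Without PargC-2 and WT2-1, the embryos farthest from the median of Uqcrh, r was 0.152. Within WT embryos r was -0.174 (exact permutation p = 0.652, n = 9), and within Parg(110)-/+ embryos 0.313 (exact permutation p = 0.416, n = 9). After the genotype means were taken off, r was -0.020. A relation between the 2 genes was thus not detectable within either genotype with this number of embryos.

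**Figure D5:**
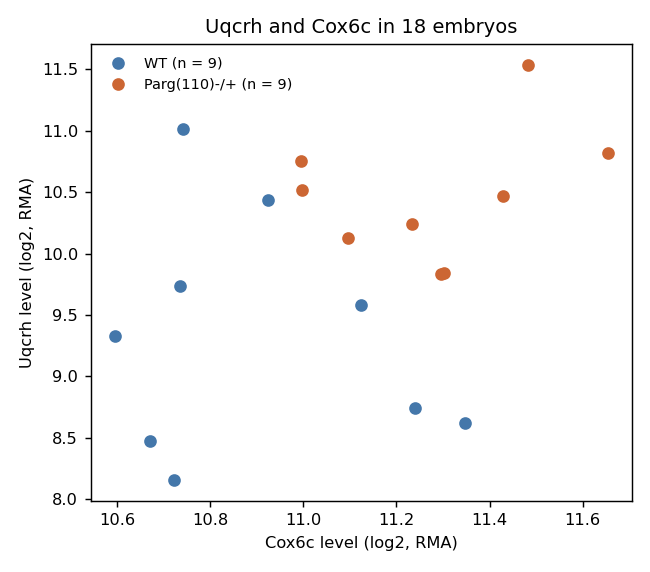
Level of Uqcrh against that of Cox6c (log2, RMA) in each embryo, 9 per genotype. Parg(110)-/+ embryos lie toward the upper right, and within each colour no slope stands out (r = -0.174 in WT, 0.313 in Parg(110)-/+).

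Over all bright genes, those most like Uqcrh across the 18 embryos were Slc14a2 (r = 0.768), Serinc2 (0.766), Gm11190 (0.734), Psmd2 (0.730) and Fbxo27 (0.729). The member most like it was Atp5e (r = 0.492), which stood at rank 283 of all bright genes, and the member least like it was Atp5pb (-0.375). For Cox6c they were Rprm (r = 0.788), Jund (0.772), Carmil3 (0.768), H2ac1 (0.755) and Faap20 (0.747). The member most like Cox6c was Cox5b (r = 0.554), at rank 142, and the least like it was Atp5b (-0.465). All these correlations include the difference between the genotypes, and the points share their arrays.

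Other genes of oxidative phosphorylation and of its supply gave 0 calls in either direction between the genotypes. Of complex I, which feeds electrons from NADH, 35 subunits were measured, 20 higher and 15 lower, with a median difference of 0.09. Of complex II 4 were measured, 2 in each direction. Of assembly factors for the complexes described here 29 were measured, 15 higher and 14 lower. Among them Ttc19, which acts in complex III, differed by -0.35 ± 0.15 (SE, limma adjusted p = 0.447). Uqcc2, a complex III assembly factor, differed by 0.96 ± 0.46 (limma adjusted p = 0.478). In the other direction, Uqcc1 and Uqcc3 of the same list differed by -0.78 ± 0.55 and -0.08 ± 0.53.

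Cytochrome c and the carriers numbered 9, 5 higher and 4 lower, with a median of 0.16. Somatic cytochrome c, Cycs, which links complex III to complex IV, differed by 0.16 ± 0.18 (SE). Of 12 regulators of mitochondrial gene expression 6 were higher and 6 were lower. Esrra, a nuclear receptor that acts on respiratory genes, differed by 0.20 ± 0.07 (limma adjusted p = 0.375). The factors whose motifs were searched differed by -0.16 ± 0.22 (Nrf1), -0.09 ± 0.07 (Gabpa) and 0.25 ± 0.15 (Yy1).

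Markers were read as mean levels per embryo. Of the 2-cell markers 5 were measured and 4 were bright, with a mean level of 7.52 to 8.84 in WT and 7.67 to 9.42 in Parg(110)-/+ embryos. Of the oocyte markers 9 were measured and 8 were bright (10.27 to 10.88 and 10.02 to 10.91). Markers of cumulus, granulosa and oviduct cells were dim for 7 of 8 (5.62 to 5.97 in WT and 5.78 to 6.06 in Parg(110)-/+ embryos), and 7 of 8 were higher in Parg(110)-/+ embryos, with a median difference of 0.10. Markers of blood cells were dim for 5 of 6 (5.28 to 5.50 and 5.43 to 5.59), with 6 of 6 higher. Spermatid markers were dim for 6 of 10 (5.63 to 5.97 and 5.78 to 6.02), with 10 of 10 higher and a median difference of 0.07. Of all probe sets, 67.1% were higher, with a median difference of 0.05 that was -0.005 with the array medians set equal. No shift particular to these markers is read from the counts. None of these markers passed the test. Array values have no true 0, and the part of these small shifts in the members' differences was not tested.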

How the data were processed

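Gene expression was measured in 18 single 2-cell embryos on Affymetrix Mouse Gene 1.0 ST arrays after amplification of RNA with the WT-Ovation One-Direct kit (NuGen). The deposited log2 values were made by the authors with RMA in Partek Genomics Suite (background correction, quantile normalization, log2 transformation, summarization), with versions not given in the sources used here. Quantile normalization can hide a change shared by most genes, values near background are compressed, and amplification from 1 embryo can add to the spread of a transcript. The number of arrays limits the precision.

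The two-sided tests of limma 3.58.1 (R 4.3.3) were run on all 28815 probe sets. Benjamini-Hochberg adjustment covered every probe set, and 0.1, as in the methods of the study, was the limit for a call. Fits compared genotypes, each Parg(110)-/- father with the 9 WT embryos, fathers within a genotype (F test) and single embryos with WT. Scripts were tested on simulated data. Permutation p used 100000 resamples, or all orders for 9 embryos (Python 3.11.15, scipy 1.17.1). Embryos of 1 father share that father, and p-values measure the spread between embryos. Genes were named from the platform annotation, which gives exactly 1 gene for 21780 probe sets, several for 1605 and none for 5430, and 0 symbols changed through Entrez identifiers. For the 20 other probe sets of members, r with the chosen one ran from 0.356 to 0.990 (median 0.955). Named genes were Uqcrh and Cox6c, per complex the 3 bright members with the smallest genotype p, the 2 with the largest and the 1 with the smallest SD, every called member, the tissue isoforms of complex IV with their broad partners, and the 5 bright genes most like Uqcrh and Cox6c. A few others are named from their lists. The members and lists were chosen with earlier results of these data known. The alternatives were other scalings, all probe sets of a gene, no dim probe sets, one-way ANOVA, the father as a block or mean, and fits without each father or embryo.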

Additional observations from a re-analysis of the deposited data

Results flagged for a closer look

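Each member was screened in each genotype for an embryo far from the other 8, by the gap to the nearest embryo as a share of the whole range. Of 86 such sets 5 stood out (5.81%), where chance gives about 1 in 20. In PargB-1, the array with the lowest correlation to the others, Atp5h measured 8.89 where the next Parg(110)-/+ embryo had 9.88, and Atp5md measured 10.40 where the next had 11.64. In WT2-1 Cox6b1 measured 9.33 where the next WT embryo had 10.90. Cox7a1 stood out in both genotypes, at 7.52 in WT1-2 with the next WT embryo at 6.18, and at 8.85 in PargC-3 with the next Parg(110)-/+ embryo at 6.74.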

How the results depend on the processing

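No paired analysis was possible because the embryos of the 2 genotypes carry no shared replicate numbers. With the array medians set equal and with a second quantile normalization all 37 results kept their side of the threshold, and the 2 that changed sign were medians with no test, to -0.04 for complex IV and -0.03 for all members with equal array medians. Over all settings other than single embryos, the median of complex III ran from -0.09 to 0.07 and that of complex IV from -0.07 to 0.10. The count of members at an unadjusted p under 0.05 between the genotypes, 3 as reported, was 6 (14.0% of members beside 7.41% of all probe sets) without father WT3, 6 (beside 11.4%) without father PargA, and 2 to 5 with single embryos left out. Uqcrh and Cox6c were among them in 30 of 30 other settings with the chosen probe sets, while Atp5g3 was among them in 12. The Uqcrh difference ran from 0.88 without PargC to 1.43 without WT3, and that of Cox6c from 0.32 without WT3 to 0.55 with the mean of its probe sets. The adjusted p of Uqcrh lay between 0.296 and 0.735 and that of Cox6c between 0.260 and 0.743, so neither was called in any setting. Uqcrq turned from -0.16 to 0.068 without father PargB.

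Called members among the offspring of PargA, and in the F test over the Parg(110)-/- fathers, numbered 0 to 1 with single embryos left out, and the 1 was Atp5g3 without PargA-1 (adjusted p = 0.00436 and 0.0512). With the spread from all 18 embryos the called members were 2 in PargB-1, Cox4i1 and Atp5md, and 1 in PargC-3. The r between Uqcrh and Cox6c ran from 0.269 to 0.490 with single embryos left out, the latter without WT3-1 (permutation p = 0.047). That p is the smallest of these settings, and the r includes the difference between the genotypes, as both genes were higher in Parg(110)-/+ embryos. With the genotype means taken off, r over all 18 embryos was -0.020, so no relation is read from this p. Without PargB-1 the Uqcrh difference was 1.07 and that of Cox6c 0.33, and the median of ATP synthase rose from 0.06 to 0.16. The cause of these changes was not tested.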
